A study of Mus musculus with 12 samples.

Results

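The genes described here are 10 genes of osteoclast differentiation measured in RAW264.7 cells, a mouse macrophage line that can be driven to form osteoclasts in culture. They were taken by name: the receptors Tnfrsf11a, Oscar and Calcr, the adaptor Traf6, the transcription factor Nfatc1, the fusion proteins Dcstamp and Ocstamp, and the resorption genes Ctsk, Acp5 and Atp6v0d2. Each name matched 1 of the 56941 gene IDs in the count table, and 9 of the 10 had enough counts to be tested. In compressed cells Nfatc1 was lower by 48.3%, Tnfrsf11a by 18.4% and Atp6v0d2 by 14.9% of the mean control level, whereas Dcstamp was 1.78 times, Ocstamp 1.88 times and Ctsk 1.19 times as high as in controls.

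Messenger RNA was sequenced from 6 control samples, in which the cells lay under an agarose cushion alone, and from 6 compressed samples, in which a weight on the cushion applied 0.14 kPa. All 12 samples were taken after 24 h, and none of the labels names a cytokine that drives osteoclast formation. No source used here says that the replicates were cultured apart, so every p-value reflects variation among these libraries, and that variation may be technical. Samples are bulk, and fewer cells expressing a gene cannot be told apart from less of its RNA per cell.

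Osteoclasts are the multinucleated cells that resorb bone, and they form by fusion of precursors of the monocyte and macrophage lineage. The cytokine RANKL binds its receptor RANK on the precursor, and RANK recruits TRAF6, which passes the signal to NF-kB, MAP kinases and AP-1. Together with calcium signals from receptors such as OSCAR, these pathways induce and activate NFATc1, the master transcription factor of the osteoclast, which turns on genes for cell fusion and for the acid and enzymes that dissolve bone.

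Library totals ran from 37948795 to 40463545 counts in controls and from 33460807 to 39103987 in compressed samples. Compressed replicate 6 stood apart from the other 11 libraries, so its values are given beside each result. Its departure from the mean of the other compressed libraries was correlated with exonic length across 14647 genes, with a Spearman coefficient of -0.552, a description across genes that are not independent. In controls that coefficient lay between -0.178 and 0.295, and in compressed replicates 1 to 5 between 0.194 and 0.41. Each library was set against the rest of its group, so the mean used for compressed replicates 1 to 5 included replicate 6. The 8 macrophage markers were all measured, with summed levels of 4587 to 4960 CPM, the counts scaled to a library of 1e+06 in controls and 6194 to 8442 in compressed samples. The largest part of that sum was Lyz2, at a mean of 2678 CPM in controls and 4204 in compressed samples. Of these markers 5 were called higher and 2 lower, beside 24.5% and 21.9% of all tested genes. The 2 lower were Cd68 (log2 fold change -0.17) and Fcgr1 (-0.39). The 5 lymphocyte markers summed to at most 0.0773 CPM in any library, and 4 of them had no count. Of 7 dendritic cell markers 2 passed the count filter and both rose, with Itgax at a log2 fold change of 1.24. The list summed to 5.50 to 6.88 CPM in controls and 8.84 to 18.02 CPM in compressed samples. The osteoblast and stromal list, with 2 of 8 genes tested and both higher, summed to 9.38 to 10.5 and 11.8 to 15.4 CPM. The 2 called there were Runx2, with 2300 counts over the controls and 2753 over the compressed samples (log2 fold change 0.44), and Sp7, with 57 and 126 (1.31). Each of the other 6 had at most 30 counts over a group, among them Bglap with 24 and 8 and Col1a1 with 24 and 30. The second dendritic marker called was Zbtb46 (399 and 442 counts, log2 fold change 0.33), and below the filter Ccr7 had 9 and 48 counts and Flt3 0 and 3. What part these marker shifts had in the results below was not tested.

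Proximal promoter sequence is shown for 3 of the members that textbooks give as targets of NFATc1, and the choice does not cover all such members. It is set beside the values below, in which Nfatc1 fell, Ctsk rose and Acp5 and Oscar were not called. The sequences are the 250 bases before the outermost RefSeq start on mouse build GRCm38.p6, printed 5′ to 3′ along the gene's strand. Capitals mark the core letters of an NFAT site, GGAAA or its reverse complement TTTCC.
Acp5, chr9:22135747-22135996, minus strand: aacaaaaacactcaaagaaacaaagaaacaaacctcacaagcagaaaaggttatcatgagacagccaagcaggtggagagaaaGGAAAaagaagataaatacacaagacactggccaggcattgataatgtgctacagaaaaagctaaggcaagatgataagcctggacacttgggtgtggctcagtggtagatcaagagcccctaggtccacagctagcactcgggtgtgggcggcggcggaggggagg
Ctsk, chr3:95498960-95499209, plus strand: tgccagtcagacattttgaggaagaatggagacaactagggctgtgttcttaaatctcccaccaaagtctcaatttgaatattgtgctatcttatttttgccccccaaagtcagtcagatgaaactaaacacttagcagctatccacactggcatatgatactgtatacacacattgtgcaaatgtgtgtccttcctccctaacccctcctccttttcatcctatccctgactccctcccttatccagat
Oscar, chr7:3616158-3616407, minus strand: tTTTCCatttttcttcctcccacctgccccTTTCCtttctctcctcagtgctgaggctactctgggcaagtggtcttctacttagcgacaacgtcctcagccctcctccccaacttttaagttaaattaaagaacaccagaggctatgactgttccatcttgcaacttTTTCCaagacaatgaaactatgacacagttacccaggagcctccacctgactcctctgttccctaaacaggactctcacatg
The Acp5 window held 1 such core, 167 bases before the start, the Oscar window 3, at 249, 220 and 82 bases, and the Ctsk window 0. For Acp5 there were 3 RefSeq windows, of which only the outermost was read, and for Ctsk and Oscar 1 each. Which start these cells use was not tested. Of 32851 RefSeq windows of this length, 55.6% held the core on either strand, so these matches are a description and not evidence of a site. The AP-1 heptamer TGANTCA was in none of the 3 windows and in 6.75% of all windows. The hexamer GAGGAA, or its reverse complement TTCCTC, the letters of a PU.1 site, was in 23.3% of all windows. It was found 2 times for Ctsk and 1 time for Oscar, where the letters do not overlap the capitals.

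A gene was called where edgeR's quasi-likelihood test gave a p of at most 0.05 after Benjamini-Hochberg adjustment over all 15001 tested genes. By that rule 3 members were called higher and 3 lower, and 3 of the 9 tested were not called. A large share of all tested genes differed between the compressed and control libraries, with 24.5% called higher and 21.9% called lower, and 46.4% in either direction. The members' median log2 fold change was 0.14, against 0.02 for all tested genes. The 6 called members were the same 6 whose CPM did not overlap between groups, 3 higher and 3 lower, beside 16.5% of all tested genes higher, 17% lower and 33.6% in either direction. Without compressed replicate 6, 4 members were higher and 3 lower, when 33.8% of 15117 tested genes were called higher, 32.2% lower and 66% either way. With each library's trend on exonic length removed the members again had 4 higher and 3 lower, beside 28.1%, 25.8% and 53.9% of 14647 genes.

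**Figure D1:**
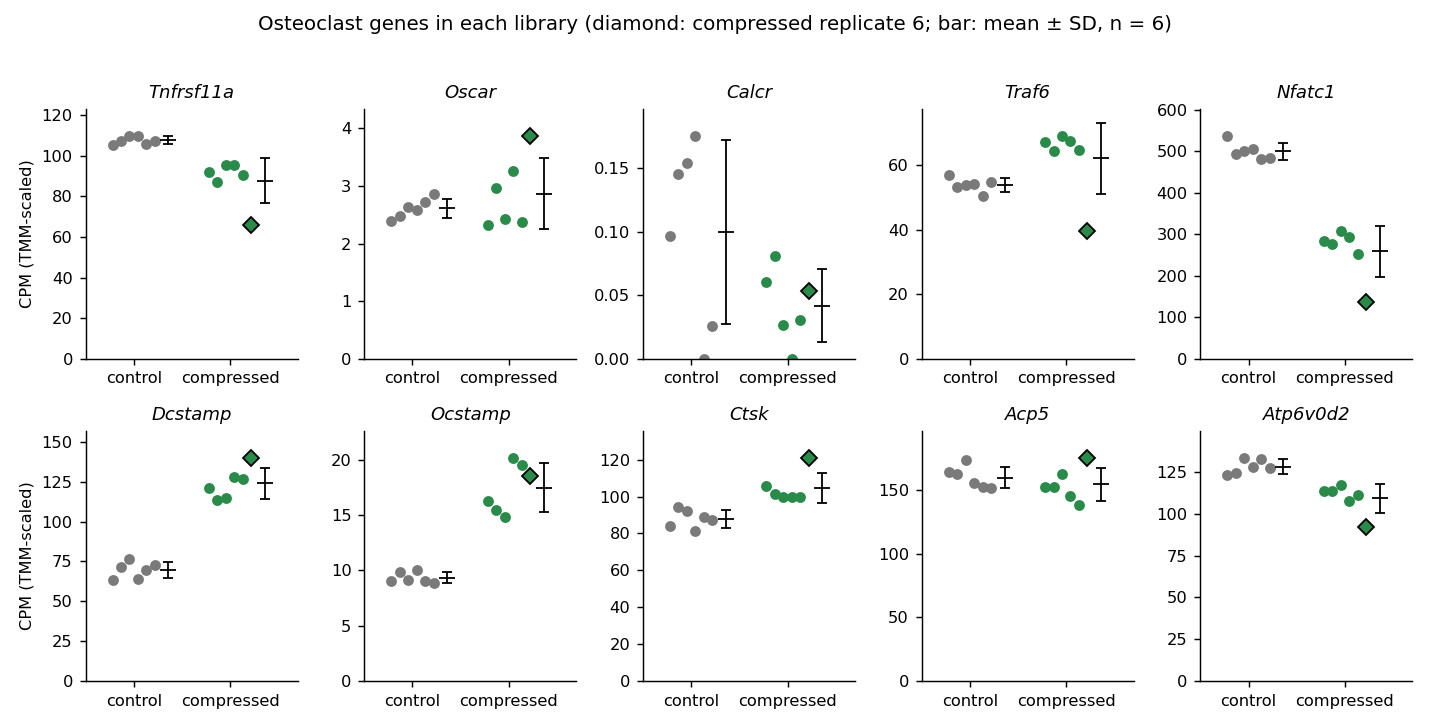
Level of each of the 10 genes in every library, as CPM after TMM scaling (y axis, from 0), for 6 control and 6 compressed libraries. Points are libraries, bars are mean ± SD (n = 6), and the diamond is compressed replicate 6. Nfatc1 lay at 481 CPM or more in every control and at 308 or less in every compressed library.

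The receptors did not move together. Tnfrsf11a (ENSMUSG00000026321) encodes RANK, the receptor through which RANKL acts. It had a lowest, median and highest level of 105, 107 and 110 CPM in controls and of 66.1, 91.4 and 95.5 CPM in compressed samples. Every compressed library lay below every control. Mean levels were 108 ± 2.01 and 87.8 ± 11.1 CPM (SD, n = 6), and the log2 fold change was -0.29 (SE 0.077, 95% interval -0.46 to -0.13, edgeR adjusted p = 0.00679). Compressed replicate 6 held the lowest value, and without it the change was -0.23 (edgeR adjusted p = 1.62e-06).

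Oscar (ENSMUSG00000054594) encodes a costimulatory receptor that binds collagen and signals through the FcRγ adaptor. Its level was low, at 2.40, 2.61 and 2.86 CPM in controls and 2.32, 2.69 and 3.87 CPM in compressed samples for the lowest, median and highest library. Of the compressed libraries, 3 lay above the highest control and 2 below the lowest, so the groups overlapped. The log2 fold change was 0.14 (SE 0.13, 95% interval -0.14 to 0.41, edgeR adjusted p = 0.408), and 0.03 without compressed replicate 6, which had the highest value.

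Calcr (ENSMUSG00000023964), the calcitonin receptor, is a marker of mature osteoclasts. It was close to absent, with 24 counts over the 6 controls and 9 over the 6 compressed samples, and it did not pass the count filter. Control replicates 1 to 6 held 4, 6, 6, 7, 0 and 1 counts, and compressed replicates 1 to 6 held 2, 3, 1, 0, 1 and 2. The groups overlapped, and the difference in means of -0.0579 CPM had a two-sided p of 0.0996 in an exact permutation test over all 924 splits, which can give no p below 0.00216. Without control replicate 5, the library at 0, the difference was -0.0779 CPM and the exact permutation p was 0.0346, so this 1 library decided on which side of 0.05 the test lay. Relative to library sizes after TMM scaling, the ratio of compressed to control counts was 0.425, with an exact 95% interval of 0.174 to 0.946 that covers counting error only.

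Traf6 (ENSMUSG00000027164) encodes the ubiquitin ligase that RANK recruits. In controls the lowest, median and highest levels were 50.2, 53.8 and 56.9 CPM, and in compressed samples 39.6, 65.8 and 69.1 CPM. Compressed replicates 1 to 5 all lay above the highest control, between 64.3 and 69.1 CPM, and compressed replicate 6 lay below the lowest. With all 12 libraries the log2 fold change was 0.21 (SE 0.11, 95% interval -0.03 to 0.44) and was not called (edgeR adjusted p = 0.145). Without compressed replicate 6 it was 0.30 and was called (edgeR adjusted p = 7.60e-08), so this 1 library decided the call. Traf6 has the longest exons of the 10 genes, 7883 bases, and with each library's trend on exonic length removed the change was 0.23 (edgeR adjusted p = 0.00292).

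Nfatc1 (ENSMUSG00000033016) had the largest decrease of the 9 tested genes. Its lowest, median and highest levels were 481, 497 and 538 CPM in controls and 137, 280 and 308 CPM in compressed samples. The groups were far apart, with the highest compressed library well under the lowest control. The mean fell from 500.3 ± 20.6 to 258 ± 62.2 CPM (SD, n = 6), a log2 fold change of -0.95 (SE 0.15, 95% interval -1.28 to -0.63, edgeR adjusted p = 1.39e-04). Compressed replicate 6 had the lowest level, and the other 5 lay at 283 ± 20.9 CPM (SD), from 252 to 308. Without that library the log2 fold change was -0.83 (edgeR adjusted p = 1.42e-12), and with the length trend removed it was -0.93.

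**Figure D2:**
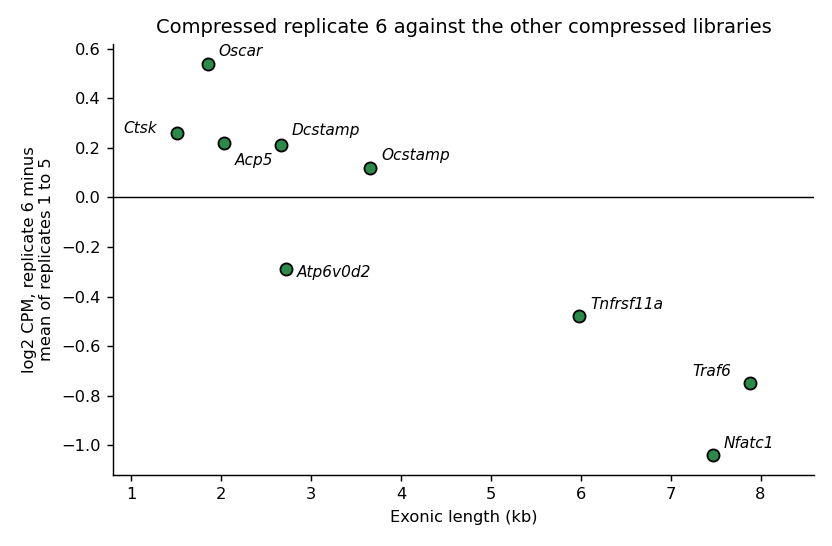
Difference in log2 CPM between compressed replicate 6 and the mean of compressed replicates 1 to 5 (y axis) against exonic length in kb (x axis), 1 point for each of the 9 tested genes. Nfatc1, Traf6 and Tnfrsf11a, the 3 longest, lay at -1.04, -0.75 and -0.48, and Oscar, of 1847 bases, lay at 0.54.

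Both fusion genes rose, by the largest amounts among the members. Dcstamp (ENSMUSG00000022303) encodes DC-STAMP, a multipass membrane protein that osteoclast precursors need in order to fuse. From lowest through median to highest, its levels were 63.0, 70.6 and 76.6 CPM in controls and 114, 124 and 140.1 CPM in compressed samples. The groups did not overlap. The mean rose from 69.6 ± 5.16 to 124 ± 9.80 CPM (SD, n = 6), a log2 fold change of 0.83 (SE 0.065, 95% interval 0.69 to 0.97, edgeR adjusted p = 2.01e-07), and 0.79 without compressed replicate 6.

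Ocstamp (ENSMUSG00000027670) encodes the related protein OC-STAMP, also needed for fusion. Its lowest, median and highest levels were 8.83, 9.07 and 10.0 CPM in controls and 14.8, 17.4 and 20.2 CPM in compressed samples. Again every compressed library lay above every control. The mean rose from 9.31 ± 0.489 to 17.5 ± 2.23 CPM (SD, n = 6), a log2 fold change of 0.91 (SE 0.081, 95% interval 0.73 to 1.08, edgeR adjusted p = 7.77e-07). It was 0.88 without compressed replicate 6. Compressed replicates 1 to 3 lay at 14.8 to 16.3 CPM and replicates 4 to 6 at 18.5 to 20.2 CPM, and Dcstamp showed the same split, at 114 to 121 and 127 to 140.1 CPM. Neither gene was split between those numbers in controls. The split was not confined to these genes or to compressed samples. Atp6v0d2 parted by the same numbers in compressed samples, the other way, at 113 to 117 and 92.1 to 112 CPM. Acp5 parted in controls, at 163 to 174 and 152 to 156 CPM.

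The 3 resorption genes went 3 ways. Ctsk (ENSMUSG00000028111) encodes cathepsin K, the protease that digests bone collagen. Its lowest, median and highest levels were 81.5, 88.0 and 94.4 CPM in controls and 99.7, 101 and 121 CPM in compressed samples. The groups did not overlap, though the gap between them was small. The mean rose from 88.0 ± 4.88 to 105 ± 8.37 CPM (SD, n = 6), a log2 fold change of 0.25 (SE 0.059, 95% interval 0.12 to 0.38, edgeR adjusted p = 0.00332). Compressed replicate 6 was the highest library, and without it the change was 0.20 (edgeR adjusted p = 5.66e-05).

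Acp5 (ENSMUSG00000001348) encodes tartrate-resistant acid phosphatase, the enzyme stained to identify osteoclasts. Its lowest, median and highest levels were 152, 159 and 174 CPM in controls and 138, 153 and 176 CPM in compressed samples, so the groups overlapped across nearly their whole range. The log2 fold change was -0.05 and was not called (SE 0.061, 95% interval -0.18 to 0.08, edgeR adjusted p = 0.537). Without compressed replicate 6, the highest compressed library, it was -0.09 (edgeR adjusted p = 0.0583).

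Atp6v0d2 (ENSMUSG00000028238) encodes the d2 subunit of the vacuolar proton pump, a subunit abundant in osteoclasts. In the lowest, median and highest library it was at 123, 128 and 134 CPM in controls and 92.1, 113 and 117 CPM in compressed samples. Every compressed library lay below every control. The mean fell from 128 ± 4.26 to 109 ± 8.92 CPM (SD, n = 6), a log2 fold change of -0.23 (SE 0.057, 95% interval -0.36 to -0.11, edgeR adjusted p = 0.00434). Compressed replicate 6 was lowest here too, and without it the change was -0.19 (edgeR adjusted p = 1.67e-05).

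**Figure D3:**
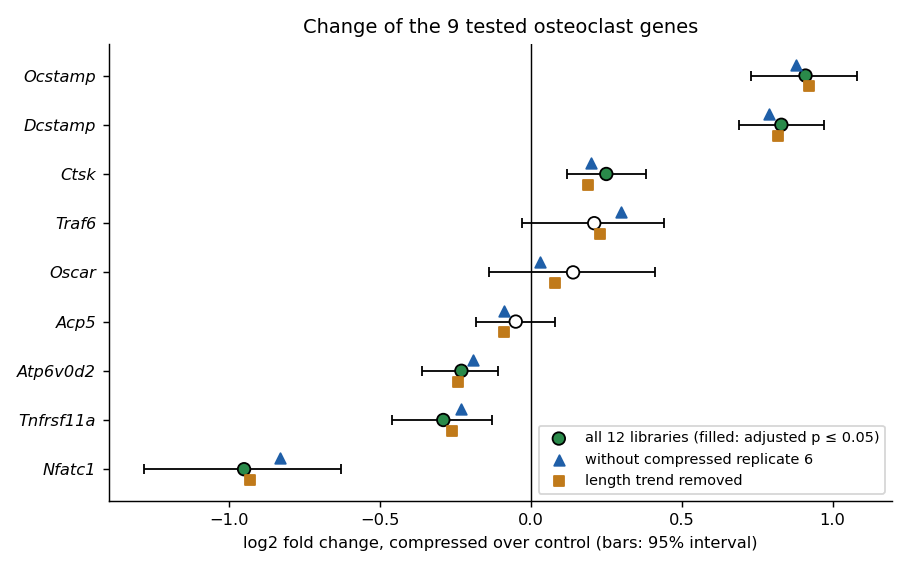
Log2 fold change of compressed over control for the 9 tested genes (x axis), with 95% intervals from edgeR for all 12 libraries as circles. Triangles leave out compressed replicate 6 and squares remove each library's trend on exonic length. Each gene kept its direction under both, from Ocstamp at 0.91 to Nfatc1 at -0.95.

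Set on 1 scale, as mean CPM per kb of exons, the members formed an order that differed between the groups. In controls Acp5 was highest at 78.9, followed by Nfatc1 at 67.0, Ctsk at 58.2, Atp6v0d2 at 47.3 and Dcstamp at 26.1. Tnfrsf11a followed at 17.98, Traf6 at 6.82, Ocstamp at 2.54, Oscar at 1.41 and Calcr at 0.0255 CPM per kb. No neighbors in the control order overlapped over the 6 libraries. In compressed samples Acp5 at 76.2 and Ctsk at 69.2 CPM per kb overlapped each other. Below them Dcstamp at 46.6 overlapped Atp6v0d2 at 40.2, which overlapped Nfatc1 at 34.6 CPM per kb. By mean Nfatc1 thus went from rank 2 to rank 5 and Dcstamp from rank 5 to rank 3. Among the lower genes, Tnfrsf11a stood at 14.7, Traf6 at 7.87 and Ocstamp at 4.77 CPM per kb, and Traf6 and Ocstamp overlapped. Oscar at 1.55 and Calcr at 0.0107 CPM per kb stayed last. Since compressed replicate 6 departed with length, levels per length are less secure in that library.

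**Figure D4:**
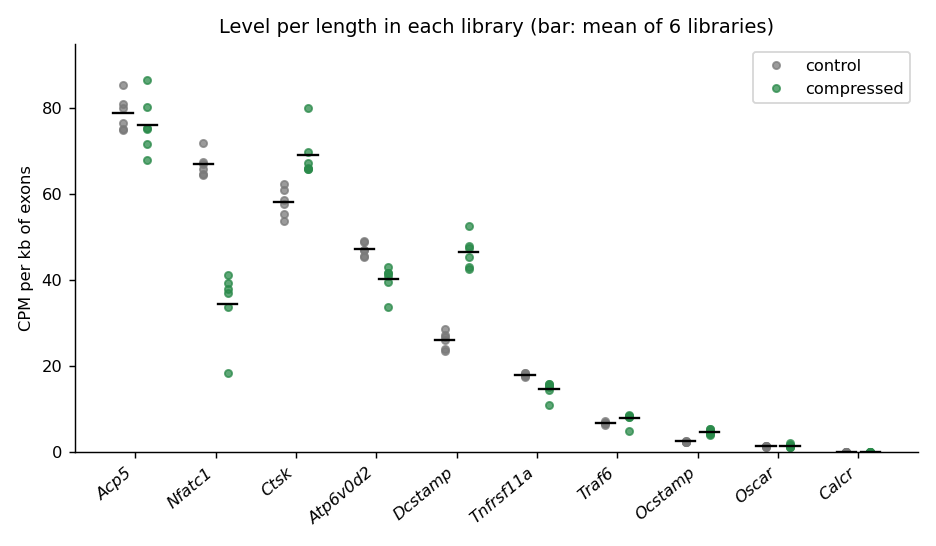
CPM per kb of exons (y axis, from 0) of the 10 genes in each of 6 control and 6 compressed libraries, with a bar at the mean, ordered by the control mean. Nfatc1 stood next to Acp5 in controls, at 67.0, and lay below Ctsk, Dcstamp and Atp6v0d2, at 34.6, in compressed samples.

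The members were set against 116 other genes of the pathway in 7 lists written from general knowledge, of which 109 were tested. Of these, 43 were called higher and 15 lower, with a median log2 fold change of 0.14. Of all tested genes 24.5% were called higher and 21.9% lower. Without compressed replicate 6 the counts were 60 and 28, beside 33.8% and 32.2% of all tested genes. The same shares are to be read beside the counts of each list below. As the lists were chosen with earlier results of these data known, their counts are a description. Every adjusted p below is from the same edgeR test.

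Of 11 ligands and partner receptors 9 were tested, and 1 rose and 1 fell. Csf1, the cytokine M-CSF that keeps precursors alive, rose from 2.94 to 6.82 CPM in the mean (log2 fold change 1.21, SE 0.12, adjusted p = 2.07e-06). Its receptor Csf1r was at 1616 CPM in controls and 1385 in compressed samples (log2 fold change -0.22, SE 0.086, adjusted p = 0.0495), a call at the threshold that was lost without any 1 of the 6 controls. Every compressed library lay below every control for Csf1r. Without compressed replicate 6, its lowest library, the change was -0.15 (adjusted p = 1.58e-04). RANKL itself, Tnfsf11, had 1 count over the controls and 0 over the compressed samples. Its decoy receptor osteoprotegerin, Tnfrsf11b, had 3 and 0 counts. Neither gene passed the count filter, and at this depth no difference could be seen in them.

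Of 29 genes that relay the signal from RANK to NFATc1, 28 were tested, 13 were higher and 5 lower, and the median log2 fold change was 0.10. The scaffold Sqstm1, or p62, which binds TRAF6, rose by 0.88 (SE 0.04, adjusted p = 1.63e-09). The kinase Src, needed for the bone-resorbing border of the cell, rose by 0.81 (SE 0.074). The NF-kB subunits Nfkb2 and Relb of the alternative pathway rose by 0.65 (SE 0.052) and 0.54 (SE 0.059). Against that direction, Traf3, which restrains the alternative pathway, had a log2 fold change of -0.42 (SE 0.13, adjusted p = 0.0193). Ppp3cb, a catalytic subunit of calcineurin, the phosphatase that activates NFATc1, had one of -0.24 (SE 0.041, adjusted p = 2.48e-04), which was not called with the length trend removed (-0.19, adjusted p = 0.0578). The list had 16 genes higher and 9 lower without compressed replicate 6.

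Of 20 transcription factors of the program 19 were tested, 5 were higher and 3 lower, and their median was -0.01. Myc rose by 1.21 on the log2 scale (SE 0.063), from 24.8 to 57.2 CPM. The AP-1 member Junb rose by 0.62 (SE 0.086), and Jund by 0.48 (SE 0.18, adjusted p = 0.0372) with overlapping groups. Jund was at 0.25 without compressed replicate 6 and lost its call when any 1 control was left out. Jdp2, an AP-1 partner that osteoclast formation needs, fell from 157 to 94.3 CPM (log2 fold change -0.73, SE 0.04, adjusted p = 6.48e-09). Nfatc3, another member of the NFAT family, also fell, with a log2 fold change of -0.47 (SE 0.15, adjusted p = 0.0181). Leaving out compressed replicate 6 gave 8 higher and 6 lower.

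Of 12 repressors of osteoclast formation 11 were tested, and 6 were called higher. By edgeR 0 were lower, also at an unadjusted p under 0.05, and DESeq2 called 0 lower, but 1 was lower with the length trend removed, with scaling by library size alone and without compressed replicate 6, where 9 were higher. Tnfaip3, or A20, which limits NF-kB, rose by 1.23 on the log2 scale (SE 0.094, adjusted p = 1.71e-07). Irf8, a factor known to hold back NFATc1, rose from 78.9 to 116 CPM (log2 fold change 0.56, SE 0.045, adjusted p = 2.63e-07). The inhibitors of DNA binding Id2 and Id1 rose by 0.62 (SE 0.11) and 0.53 (SE 0.16), with overlapping groups for Id1, which was at 0.33 without compressed replicate 6.

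Of 14 further fusion genes 12 were tested, with 7 higher, 1 lower and a median of 0.32. The list does not separate genes that promote fusion from genes that limit it, so its direction is not a direction of fusion. Cd47, the ligand of SIRPα, rose by 0.82 (SE 0.10), the metalloprotease gene Adam8 by 0.56 (SE 0.092), and the tetraspanins Cd81 and Cd9 by 0.55 each (SE 0.093 and 0.081). P2rx7, an ATP-gated channel, went the other way at -0.44 (SE 0.10, adjusted p = 0.00347). The 7 of 12 called higher stand beside 24.5% of all tested genes. Of these 12, 11 were higher without compressed replicate 6, beside 33.8% of all tested genes under that setting. Because the list was chosen with earlier results of these data known, these shares are a description and not a test.

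Of 14 attachment and resorption genes, all tested, 6 were higher and 3 lower. The membrane-bound metalloprotease Mmp14 rose from 0.570 to 13.0 CPM (log2 fold change 4.50, SE 0.17, adjusted p = 3.19e-10). The gelatinase Mmp9 rose from 17.1 to 216 CPM (log2 fold change 3.65, SE 0.16, adjusted p = 1.57e-09). The integrin subunit Itgb3, by which osteoclasts attach, rose by 1.76 (SE 0.17) from a low 0.615 to 2.10 CPM. Carbonic anhydrase II, Car2, which supplies protons, rose by 0.56 (SE 0.07), while the anion exchanger Slc4a2 had a log2 fold change of -0.53 (SE 0.097) and the lysosomal adaptor Plekhm1 one of -0.41 (SE 0.13).

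Of 16 other subunits and accessory proteins of the proton pump, all tested, 5 were higher and 2 lower, with a median of 0.07. Atp6v0d1, the broadly expressed counterpart of Atp6v0d2, rose from 118 to 170 CPM (log2 fold change 0.52, SE 0.054, adjusted p = 3.09e-06), in the libraries in which Atp6v0d2 fell. Atp6v0a1 rose by 0.50 (SE 0.089) and Atp6v1e1 by 0.41 (SE 0.096). The log2 fold change was -0.39 (SE 0.076) for Atp6ap2, whose groups overlapped, and -0.27 (SE 0.044) for Atp6v1b2. Leaving out compressed replicate 6 gave 7 higher and 5 lower.

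**Figure D5:**
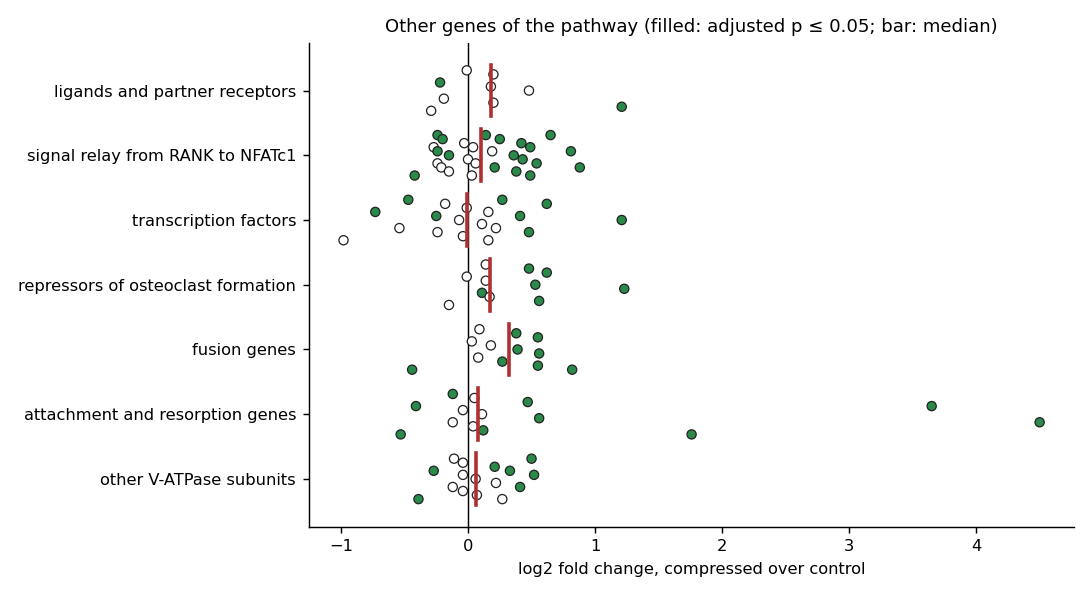
Log2 fold change of compressed over control (x axis) for the 109 tested genes of the 7 lists, 1 point a gene, filled where the edgeR adjusted p was 0.05 or less, with a bar at each list's median. Medians ran from -0.01 for transcription factors to 0.32 for fusion genes, and the points farthest right are Mmp14 at 4.50 and Mmp9 at 3.65.

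The genes whose levels followed a member most closely were sought by Pearson correlation of log2 CPM over the 12 libraries after the group means were removed. For Nfatc1 they were Espl1 (r = 0.993), Frmd4b (0.992) and Usp6nl (0.992), for Tnfrsf11a they were Usp42 (0.987), Git1 (0.987) and Zfp790 (0.986), and for Ctsk they were Pmp22 (0.954), Ginm1 (0.937) and Atp6ap1 (0.936). How many other genes came close to these values was not counted. The points share libraries, and compressed replicate 6 is far from the rest. Without it r was 0.87 to 0.92 for the first group, 0.81 to 0.87 for the second and 0.84 to 0.90 for the third.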

How the data were processed

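The authors deposited a table of unnormalized counts, with Ensembl gene IDs as rows and 12 libraries as columns, made from reads aligned with STAR 2.7.2 to GRCm39 according to the submitters' processing notes. How reads were counted, whether by strand, and on which annotation release was not given in the sources used here, so reads of genes that overlap on opposite strands may not have been told apart. Symbols came from a reference list of gene names, matched by ID for 51948 of 56941 IDs, which hold 99.493% of counts. Exonic lengths came from GENCODE M21 on GRCm38 and were found for 14647 of the 15001 tested genes. Promoter windows came from RefSeq on GRCm38.p6. Windows of 6 of the 10 members were read and 3 are printed. Of those not printed, that of Calcr held 1 core of an NFAT site, 65 bases before the start, and those of Tnfrsf11a and Traf6 held 0. Gene positions on the authors' build were not used.

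Genes were kept with filterByExpr (minimum count 10), scaled by TMM and tested across all 15001 kept genes with the quasi-likelihood F test of edgeR 4.0.16 in R 4.3.3, on condition alone. Genes at 0.05 or less after Benjamini-Hochberg adjustment were called. Standard errors were derived as the size of the log2 fold change divided by the root of F and restate that test. Log2 CPM used a prior count of 2, and the length trend was a lowess curve of each library's deviation on log exonic length (span 0.3), entered as offsets. Calcr, below the filter, was tested by an exact permutation of sample labels in SciPy 1.17.1. At this depth counting error is small for the other members except Oscar. That gene had 99 to 111 counts in a control library and 77 to 146 in a compressed one. The interval of the Calcr ratio covers counting error only. Counts of reads, with no molecular identifiers in the table, are not counts of independent molecules. Libraries of a group differed by a chi-square of at least 2.21 per gene on average, above sampling noise, so none was counted as a duplicate.

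Alternatives were DESeq2 1.42.0, library size alone, other low-count filters, a replicate block and each library left out in turn. The length trend and a term for replicates 1 to 3 against 4 to 6 were added after the data were seen. The members and lists were chosen with earlier results of these data known. Of each list, up to 4 called genes with the largest change and up to 2 that went against most called members were named, and 3 correlated genes for Nfatc1, Tnfrsf11a and Ctsk. Genes below the count filter, single marker genes and Fos and Fosb were named after their values were seen.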

Additional observations from a re-analysis of the deposited data

Results flagged for a closer look

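In 28 of 86 groups examined, the highest or lowest of the 6 libraries lay farther from its neighbor, relative to the range, than Dixon's 95% critical value, which chance gives in about 1 of 20 groups. Compressed replicate 6 was that library in 25 of them, 5 of which are members. It was the lowest compressed library for Tnfrsf11a (66.1 CPM, the others 86.9 to 95.5), Traf6 (39.6 CPM, the others 64.3 to 69.1), Nfatc1 (137 CPM, the others 252 to 308) and Atp6v0d2 (92.1 CPM, the others 108 to 117), and the highest for Ctsk (121 CPM, the others 99.7 to 106).

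Among the other pathway genes, compressed replicate 6 was the lowest compressed library for Csf1r (997 CPM), Traf3 (36.5), Nfatc3 (47.8), Tnfaip3 (50.1), P2rx7 (17.4), Slc4a2 (69.5), Plekhm1 (55.5) and Irf8 (108 CPM). It was the highest for Relb (39.3 CPM), Junb (498), Jund (209), Id1 (21.1), Cd47 (255), Cd81 (50.02), Cd9 (946), Car2 (1185), Atp6v0d1 (199), Atp6v1e1 (168), Atp6ap2 (238) and Atp6v1b2 (390.3 CPM). Compressed replicate 5 stood apart for Mmp14 (16.3 CPM) and Mmp9 (331 CPM), and control replicate 2 for Itgb3 (0.754 CPM).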

How the results depend on the processing

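Over 20 alternatives each, the 6 called members kept their calls and their direction, with Nfatc1 between -1.01 and -0.83, Tnfrsf11a between -0.35 and -0.23, Atp6v0d2 between -0.29 and -0.19, Ctsk between 0.19 and 0.27, Dcstamp between 0.77 and 0.86 and Ocstamp between 0.84 and 0.95 on the log2 scale. Oscar (0.03 to 0.19) and Acp5 (-0.11 to -0.02) were called by none. Traf6 was called under 2 of 20, at 0.23 with the length trend removed and at 0.30 without compressed replicate 6. Leaving out 1 library at a time, it ranged from 0.17 to 0.30. The Calcr difference ranged from -0.0779 to -0.0427 CPM, and its exact permutation p from 0.0346 to 0.199. The 109 other pathway genes had 12 to 28 lower calls when 1 library was left out. The 28 came without compressed replicate 6, where 32.2% of all tested genes were called lower. No pairing of the libraries by replicate number was seen. The correlation of same-numbered libraries was -0.115 to 0.04 over 15001 genes, and 0 of 6 controls correlated best with its own number. Compressed replicate 6 and each library's length trend also enter these correlations, so they cannot exclude pairing. With a replicate block edgeR called 3 members higher and 3 lower, and 39 and 13 other pathway genes, beside 3299 and 3094 of all 15001 tested genes. Scaling by library size alone shifted the median of all genes by -0.063, and edgeR then called 3079 genes higher and 4050 lower. Of the pathway genes named with a log2 fold change, Csf1r, Jund and Ppp3cb lost their calls under some settings, and none reversed. With the length trend removed, Ppp3ca, Tab1 and Ptpn6, named after their values were seen, lost theirs too. Depth limited what could be seen of Calcr, Tnfsf11 and Tnfrsf11b, and counting error was larger for Oscar than for the other tested members.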

Other observations

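Fos, the AP-1 subunit without which osteoclasts do not form, is a transcription factor of the list that was not called, and it is named with Fosb after its values were seen. In controls Fos lay at 126 to 147 CPM in replicates 1 to 3 and at 60.8 to 73.2 CPM in replicates 4 to 6. In compressed samples it lay at 81.5 to 98.2 and at 50.4 to 58.8 CPM, so the numbers parted in both groups. Its log2 fold change was -0.54 (edgeR adjusted p = 0.102), and with a term for the 2 sets of numbers, added after the data were seen, it was -0.48 (edgeR adjusted p = 6.67e-04). Fosb parted in the same way, at 12.3 to 16.9 and 1.34 to 1.88 CPM in controls and at 4.58 to 6.94 and 1.80 to 3.13 CPM in compressed samples, and was not called with the term (log2 fold change -0.57, edgeR adjusted p = 0.18). The labels give no batch for these numbers. With the same term Nfatc1 stood at -0.96, Dcstamp at 0.83 and Ocstamp at 0.90.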
